A study of Mus musculus with 19 samples.

Results

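The genes described here are 10 regulators of brown and early fat cell identity, Ebf1, Ebf2, Ebf3, Nfia, Prdm16, Zfp423, Zfp467, Zfp516, Tle3 and Zic1. They were chosen by name, as the transcript clusters whose array annotation gives one of these symbols and no other, out of 22180 genes tested. All 10 were measured. Ebf2 and Prdm16 had 2 transcript clusters each, and the cluster with the higher mean over the 19 arrays was used. The question was whether the RNA of these regulators differed when MED1 was lost, in cultured fat cell precursors and in brown fat of embryos and adults.

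Brown fat cells burn fuel to make heat through the mitochondrial protein UCP1, and they share an embryonic origin with skeletal muscle. Early B cell factors such as EBF2, together with NFIA, open brown fat gene enhancers to PPARG, the master factor of fat cell formation, and PRDM16 joins them there as a coregulator. MED1 is a subunit of the Mediator complex, which links such factors to RNA polymerase II, and both PPARG and PRDM16 are known to bind it. A regulator's RNA level does not show how active its protein is.

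RNA was measured as log2 RMA signal (RMA corrects background, normalizes arrays together and summarises each cluster's probes) on 8 arrays of 3T3-L1, a mouse fibroblast line that becomes fat cells after a hormone cocktail, and on 11 arrays of interscapular brown fat. The cells were the wild-type parent line or MED1 knockout cells made by CRISPR/Cas9, with 2 arrays each on day 0 and day 2 of differentiation. Embryonic brown fat at E17.5 came from Myf5-Cre embryos with 1 floxed and 1 wild-type Med1 allele (Myf5CreMed1f/w, 3 control arrays) or with both alleles floxed (Myf5CreMed1f/f, 4 knockout arrays). Adult brown fat, at 10 weeks after birth, came from Med1f/f mice without Cre (2 control arrays) or AdipoqCreMed1f/f mice (2 knockout arrays). The Myf5 driver is active early, in cells that give rise to brown fat and muscle, and the Adipoq driver in mature fat cells, so other cells of adult brown fat keep the floxed gene. Embryonic controls thus carried Cre and a single intact Med1 allele, while adult controls carried no Cre. Knockout cell RNA was pooled from individual clones and compared with the parent line, so effects of cloning and of MED1 loss cannot be told apart. The labels do not say whether replicates were separate cultures or animals, and p-values therefore rest on the array-to-array spread alone, part of which may be technical.

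Every test was made with limma on the log2 values and adjusted by Benjamini-Hochberg over all 22180 genes, and a gene was called at an adjusted p under 0.05. Differences are knockout minus control on the log2 scale, ± standard error. Cell arrays had medians of 4.69 to 4.79, embryonic arrays 3.49 to 3.57 and adult arrays 2.87 to 2.89, so the experiments look normalized separately and no level is compared between them. Title and source label disagree on the day of 4 of the 8 cell arrays. Days follow the titles here, and a comparison of genotypes over 4 pairs of arrays holds under either label. The targeted gene, Med1, was lower in knockout cells over the pairs by -1.31 ± 0.08 (adjusted p = 0.0011). Its difference was -0.35 ± 0.19 in the embryo (adjusted p = 0.37) and -1.24 ± 0.31 in the adult (adjusted p = 0.19), and the cluster may also read RNA outside a deleted part. Cells had Pdgfra, a precursor marker, at 10.82 to 11.11, with the fat cell hormone Adipoq at 3.35 to 4.19. Ucp1 lay at 10.07 to 11.59 in embryonic control brown fat and at 12.09 to 12.5 in that of adults.

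Promoter sequence was looked at for letters that the regulators or the fat cell factors PPARG and C/EBP are known to bind. Windows of 250 bases before the transcription start, from RefSeq on GRCm38.p6, were used for 8 of the 10 genes, 10 windows in all. Ebf2 and Zfp516 had none used here. The search left out any regulator window on a given chromosome, and the count over all windows had no such filter. A gene without a window here may thus have been left out by that filter and not for lack of a window. EBF proteins bind a palindrome, searched on both strands in the short form CCCNNGGG and in the full EBF palindrome, which contains it. The short form was in 3 of the 10 windows, beside 11.8% of all 32851 windows of this length, and the full palindrome was in 0 of 10, beside 0.779%. The fixed letters of the short form are all G or C, and the 3 windows were 64.8%, 70.4% and 80.0% G and C. Over the 10 windows this share ran from 40.0% to 80.0%. GGGCGG, the Sp1 box, also of G and C only, was in 6 of 10, beside 32.7%. The part of base content in these shares was not tested. The windows that held the short form are shown because their genes, Zfp423, Ebf3 and Zfp467, are themselves EBF partners or fat cell precursor factors. Zfp423 is shown at both of its start sites because it carried a call in cells. Capitals mark CCCNNGGG or, in the first window, TTNNGCAA, a relaxed form of the letters bound by C/EBP factors.
Zfp423, first start (chr8:87959596-87959845, minus strand): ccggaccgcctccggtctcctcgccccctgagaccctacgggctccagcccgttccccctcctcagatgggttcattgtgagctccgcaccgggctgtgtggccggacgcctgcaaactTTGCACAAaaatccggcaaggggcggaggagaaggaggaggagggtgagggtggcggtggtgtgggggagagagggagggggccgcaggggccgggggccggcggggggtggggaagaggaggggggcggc
Zfp423, second start (chr8:87804440-87804689, minus strand): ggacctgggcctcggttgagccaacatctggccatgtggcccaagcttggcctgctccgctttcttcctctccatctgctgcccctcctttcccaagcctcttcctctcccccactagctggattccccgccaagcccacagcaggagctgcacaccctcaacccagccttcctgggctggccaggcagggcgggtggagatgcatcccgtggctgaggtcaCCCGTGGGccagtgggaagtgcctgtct
Ebf3 (chr7:137314446-137314695, minus strand): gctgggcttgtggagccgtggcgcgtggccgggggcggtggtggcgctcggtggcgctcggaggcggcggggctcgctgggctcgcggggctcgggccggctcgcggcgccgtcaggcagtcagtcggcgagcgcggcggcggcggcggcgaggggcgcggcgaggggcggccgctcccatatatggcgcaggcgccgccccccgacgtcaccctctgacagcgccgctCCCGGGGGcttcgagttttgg
Zfp467 (chr6:48445091-48445340, minus strand): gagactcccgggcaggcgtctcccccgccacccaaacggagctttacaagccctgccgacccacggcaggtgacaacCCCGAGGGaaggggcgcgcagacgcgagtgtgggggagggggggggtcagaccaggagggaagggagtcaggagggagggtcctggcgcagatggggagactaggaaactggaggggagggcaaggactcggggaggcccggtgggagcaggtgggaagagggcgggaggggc
In the first Zfp423 window the C/EBP-like letters lay 131 to 124 bases before the start, on the opposite strand, and 9.56% of all windows held such a match. In the second the EBF-like letters CCCGTGGG lay 28 to 21 bases before the start. They lay 21 to 14 bases before the start of Ebf3 (CCCGGGGG) and 173 to 166 bases before that of Zfp467 (CCCGAGGG). A match is a description of letters and not a shown binding site. Neither TTGCGCAA, the full C/EBP palindrome contained in the relaxed form, nor the PPAR direct repeat was in any of the 10 windows, beside 0.164% and 0.0335% of all windows. The NFI palindrome, bound by NFIA and its relatives, and its core were also in 0 of 10, beside 0.0365% and 0.703%.

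None of the 10 regulators was called in any comparison of knockout with control. In cells over the 4 pairs 0 of 10 were called, beside 0.289% of all genes, and 2 had an unadjusted p under 0.05, beside 12.3%. On day 0 the count was 0 of 10 beside 0.185% of all genes, and on day 2 it was 0 of 10 beside 0.266%, with 1 regulator at an unadjusted p under 0.05 on each day (beside 4.88% and 8.15% of all genes). In E17.5 brown fat 0 of 10 were called beside 1.16% of all genes, and 5 had an unadjusted p under 0.05 beside 20%. In adult brown fat 0 of 10 were called beside 0.0271% of all genes, and 4 had an unadjusted p under 0.05 beside 13.6%. With so few genes called, a share of 0 among 10 lies near the background in each case.

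The intervals say how large a difference these arrays leave possible. The 95% intervals of all 10 regulators lay within ratios of 0.664 to 1.64 in E17.5 brown fat, and within 0.689 to 1.45 in cells over the pairs. They lay within 0.575 to 1.73 on day 0 and 0.595 to 1.9 on day 2. In adult brown fat, with 2 arrays a group, they reached from 0.358 to 2.29. A difference inside these bounds could have gone uncalled.

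**Figure D1:**
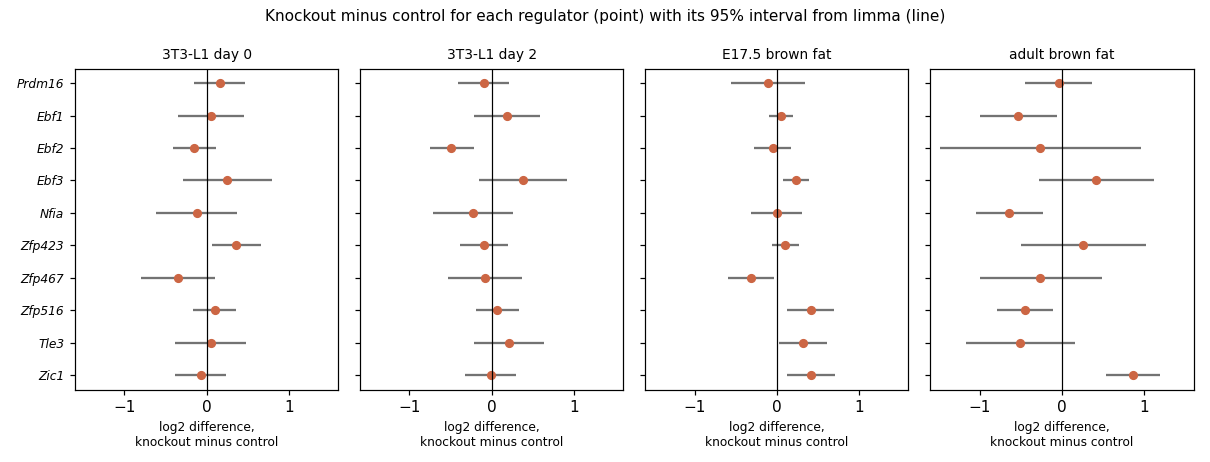
Log2 difference, knockout minus control, for each regulator (point) with its 95% interval from limma (line), in 3T3-L1 cells on day 0 and day 2 and in E17.5 and adult brown fat. None of the 10 was called in these comparisons; Zic1 (0.87), Nfia (-0.64) and Ebf1 (-0.53) in the adult lay farthest from 0 among those whose interval excludes 0.

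The early B cell factors are DNA-binding proteins that prepare precursors for the fat cell programme, and EBF2 marks brown and beige precursors. In wild-type cells the Ebf2 signal was 4.73 and 4.69 on day 0 and 5.32 and 5.27 on day 2. In knockout cells it was 4.53 and 4.58 on day 0 and 4.84 and 4.78 on day 2. These signals lay close to the array medians, from -0.21 to 0.58 relative to them. The second Ebf2 cluster lay under the lower quartile of all clusters on every cell array. Its wild-type difference between the days was 0 ± 0.17. In the cluster used, both wild-type day 2 arrays lay above all 6 others, and on each day the knockout arrays lay below the wild-type arrays. Such a lack of overlap on a day was common, at 34% of all genes on day 0 and 36.4% on day 2. Between the days in wild-type cells it was found for 48.7% of all genes. Ebf2 rose in wild-type cells from day 0 to day 2 by 0.59 ± 0.12 (1.5-fold, n = 2 arrays a group, limma adjusted p = 0.013), the single regulator called in that comparison, beside 9.07% of all genes called. Of the 10 regulators 5 had an unadjusted p under 0.05 there, beside 22% of all genes. The corresponding difference in knockout cells was 0.25 ± 0.12 (adjusted p = 0.31). The knockout difference on day 2 was -0.49 ± 0.12 (ratio 0.714, 95% interval 0.595 to 0.857), with an adjusted p of 0.24. Over the pairs it was -0.32 ± 0.09 (adjusted p = 0.25), with pair differences of -0.19, -0.48, -0.11 and -0.49, negative in 4 of 4 pairs; 21.8% of all genes had a single sign in all 4. The test of whether the rise itself differed between genotypes gave -0.34 ± 0.16 (unadjusted p = 0.072, adjusted p = 1), so a difference between the rises was not shown. Without the first wild-type day 0 array, the first wild-type day 2 array or the second wild-type day 0 array the adjusted p of the rise was 0.055, 0.055 and 0.075, and with days taken from the source label the value was -0.05 (adjusted p = 1).

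The genes whose signal followed Ebf2 most closely over the 8 cell arrays, among 11340 genes above the median of the table, were Cebpa (Pearson r = 0.993), Bpifb9b (0.99) and Pparg (0.989). These correlations are a description over 8 arrays that fall in 4 groups, and the 3 genes were picked as the highest values. CEBPA and PPARG are the factors that carry precursors into fat cell formation. Cebpa was 5.53 and 5.46 in wild-type and 5.15 and 4.95 in knockout cells on day 0, and 7.17 and 7.18 against 5.88 and 5.74 on day 2. Pparg was 5.93 and 5.76 against 5.02 and 5.1 on day 0, and 7.94 and 7.8 against 5.84 and 5.87 on day 2. As for Ebf2, the wild-type day 2 arrays were the highest of all and the knockout day 0 arrays the lowest, with no overlap between groups on a day. Such a lack of overlap was found for 34% of all genes on day 0 and 36.4% on day 2. On day 2 Pparg was lower in knockout cells by -2.01 ± 0.13 (4.03-fold, adjusted p = 0.00037) and Cebpa by -1.36 ± 0.13 (2.57-fold, adjusted p = 0.0039). The Pparg call held without any 1 of the 8 arrays (adjusted p up to 0.0095), and that of Cebpa was lost without the second knockout day 2 array (adjusted p = 0.055). With days from the source label no gene was called on day 2, while 490 genes had an unadjusted p under 0.05.

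**Figure D2:**
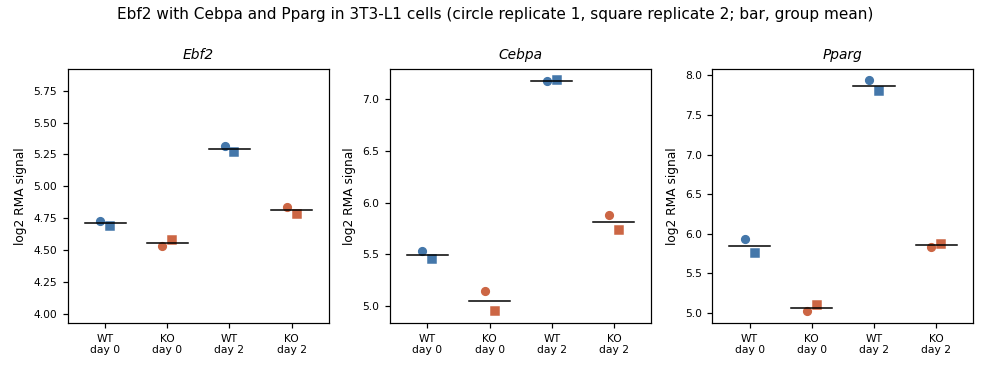
Log2 RMA signal of Ebf2, Cebpa and Pparg on each of the 8 3T3-L1 arrays, by genotype and titled day (blue, wild type; orange, knockout; circle, replicate 1; square, replicate 2; bar, group mean). Scales differ between panels. In each panel the wild-type day 2 arrays are highest (5.32 and 5.27 for Ebf2) and the knockout day 0 arrays lowest (4.53 and 4.58). Genotypes did not overlap for 34% of all genes on day 0 and 36.4% on day 2.

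In brown fat the Ebf2 signal was 9.41, 9.77 and 9.54 in E17.5 controls and 9.41, 9.56, 9.61 and 9.51 in knockouts. The groups overlapped, and the difference of -0.05 ± 0.09 had an interval of -0.28 to 0.17. In the adult it was 8.11 and 6.71 in controls and 7.42 and 6.88 in knockouts, so that the control arrays differed from each other more than the group means did. The adult difference was -0.26 ± 0.48 (interval -1.48 to 0.96).

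Ebf1, which promotes fat cell formation in several precursor types, lay between 8.98 and 9.55 in all 8 cell arrays. Its knockout difference over the pairs was 0.12 ± 0.10 (interval -0.10 to 0.34). Embryonic controls read 9.1, 9.22 and 9.15 and the knockouts 9.17, 9.17, 9.33 and 9.17, a difference of 0.05 ± 0.06 (interval -0.09 to 0.20). The whole embryonic range spanned 0.22 on the log2 scale, the smallest of the 10 regulators in that tissue. In the adult the controls read 8.82 and 8.71 and the knockouts 8.44 and 8.03, without overlap, and the difference was -0.53 ± 0.18 (adjusted p = 0.31). Groups did not overlap for 41.9% of all genes in the adult comparison, so the lack of overlap is common there.

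Ebf3, the third family member here, had the opposite sign to Ebf2 in cells. Its pair differences were 0.48, 0.42, 0.02 and 0.34, and their mean was 0.32 ± 0.10 (adjusted p = 0.26). Controls at E17.5 read 7.17, 7.06 and 7.07 and the knockouts 7.29, 7.24, 7.33 and 7.46. All knockout arrays lay above all controls, by a small amount, as groups did not overlap for 15.4% of all genes in this tissue. The difference was 0.23 ± 0.07 (1.17-fold, adjusted p = 0.13). The adult values overlapped, at 6.35 and 5.64 in controls and 6.58 and 6.24 in knockouts, with a difference of 0.42 ± 0.28 (adjusted p = 0.61).

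NFIA, a nuclear factor I protein, opens chromatin at brown fat genes ahead of PPARG. Nfia in wild-type cells was 8.67 and 8.44 on day 0 and 9.56 and 8.93 on day 2, and in knockout cells 8.65 and 8.23 on day 0 and 9.04 and 8.99 on day 2. The day 2 arrays lay above the day 0 arrays in both genotypes, by 0.69 ± 0.22 in wild-type cells (adjusted p = 0.088) and 0.58 ± 0.22 in knockout cells (adjusted p = 0.2), neither of them called. The 2 days did not overlap for 48.7% of all genes in wild-type and 47.9% in knockout cells. Without the second wild-type day 2 array, the lower of that pair, the wild-type difference was 1 with an adjusted p of 0.028. The genotypes differed by -0.17 ± 0.11 over the pairs (adjusted p = 0.55).

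In E17.5 brown fat Nfia was 8.73, 9.04 and 8.94 in controls and 8.6, 8.95, 9.1 and 8.95 in knockouts, with a difference of 0 ± 0.13 (interval -0.31 to 0.31). In adult brown fat it was 8.3 and 8.59 in controls and 7.85 and 7.76 in knockouts. The adult knockout arrays lay below both controls, beside 41.9% of all genes without overlap in that comparison. The Nfia difference was -0.64 ± 0.16 (ratio 0.644, interval 0.487 to 0.85), with an unadjusted p of 0.0093 and an adjusted p of 0.19.

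PRDM16 is the zinc finger coregulator that favours brown fat over muscle. Prdm16 lay between 4.49 and 5.03 in cells, close to the array medians, and its knockout difference over the pairs was 0.03 ± 0.09 (interval -0.19 to 0.24). The embryonic controls read 5.23, 5.97 and 5.85 and the knockouts 5.35, 5.78, 5.68 and 5.5. The knockout arrays lay within the range of the controls, with a difference of -0.11 ± 0.19 (ratio 0.929, interval 0.68 to 1.27). In the adult the controls read 5.25 and 5.04 and the knockouts 5.22 and 4.99, with a difference of -0.04 ± 0.16 (ratio 0.972, interval 0.733 to 1.29). The second Prdm16 transcript cluster and that of Ebf2 had no call in any comparison either, with adjusted p of at least 0.4.

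The zinc finger proteins include factors of precursor commitment and of heat production. ZFP423 commits precursors to fat, and in white fat cells it holds back heat genes by binding EBF2. Zfp423 in wild-type cells was 7.09 and 7.17 on day 0 and 6.86 and 6.75 on day 2, and in knockout cells 7.55 and 7.44 on day 0 and 6.59 and 6.83 on day 2. The knockout day 0 arrays were the highest of the 8 and the genotypes overlapped on day 2. Groups did not overlap for 34% of all genes between genotypes on day 0, and for 47.9% between the days in knockout cells. Zfp423 fell in knockout cells from day 0 to day 2 by 0.78 on the log2 scale (± 0.13, ratio 0.58, n = 2 arrays a group, limma adjusted p = 0.0087), the single regulator called in that comparison, beside 5.7% of all genes called. Of the 10 regulators 2 had an unadjusted p under 0.05 there, beside 17.3% of all genes. In wild-type cells the same comparison gave -0.33 ± 0.13 (adjusted p = 0.18). On day 0 the knockout difference was 0.36 ± 0.13 (unadjusted p = 0.023, adjusted p = 0.91). The test of the difference between the falls gave -0.46 ± 0.19 (unadjusted p = 0.037, adjusted p = 1), and 4.24% of all genes had an unadjusted p under 0.05 there while 0 were called. Without the first knockout array of day 0 or of day 2 the adjusted p of the fall was 0.08 and 0.085, and with days from the source label the value was 0.07 (adjusted p = 1).

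The genes most like Zfp423 over the 8 cell arrays were Mtpn (Pearson r = 0.986), Rnf14 (0.974) and Dtd1 (0.972), again a description over 4 groups. In brown fat Zfp423 was 5.6, 5.8 and 5.79 in E17.5 controls and 5.77, 5.86, 5.8 and 5.91 in knockouts, with a difference of 0.10 ± 0.07 (interval -0.06 to 0.27). The adult values were 4.76 and 4.47 in controls and 5.29 and 4.46 in knockouts. The adult knockout arrays lay on both sides of the controls, with a difference of 0.26 ± 0.30.

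ZFP467 promotes fat cell formation from mesenchymal precursors. Zfp467 lay between 4.77 and 5.57 in cells, with a knockout difference over the pairs of -0.21 ± 0.12 (adjusted p = 0.52). At E17.5 the controls read 4.78, 5.05 and 5.31 and the knockouts 4.65, 4.78, 4.78 and 4.74. The groups met at the lowest control and were not apart at full precision, with a difference of -0.31 ± 0.12 (ratio 0.807, adjusted p = 0.21). In the adult the values overlapped, and the difference was -0.26 ± 0.30 (adjusted p = 0.82).

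ZFP516 is a cold-induced activator of Ucp1 that works with PRDM16. Zfp516 hardly varied in cells, between 7.47 and 7.7 over all 8 arrays. Its pair differences of 0.13, 0.05, 0.07 and 0.08 were all positive but small, with a mean of 0.08 ± 0.07 (adjusted p = 0.69). A single sign in all 4 pairs was found for 21.8% of all genes. For embryonic brown fat the controls read 5.23, 5.57 and 5.55 and the knockouts 5.72, 5.75, 6.09 and 5.87. All knockout arrays lay above all controls, with a difference of 0.41 ± 0.12 (1.33-fold, adjusted p = 0.13), beside 15.4% of all genes without overlap. In adult brown fat the controls read 3.9 and 3.86 and the knockouts 3.36 and 3.49. Here both knockout arrays lay below both controls, with a difference of -0.45 ± 0.13 (ratio 0.732, adjusted p = 0.24), beside 41.9% of all genes without overlap.

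The difference between the adult and the embryonic knockout effect was tested in a fit of all 11 brown fat arrays. Zfp516 was the single regulator called, at -0.86 ± 0.19 (adjusted p = 0.047), beside 1.99% of all genes called. Leaving out any 1 of the 11 arrays ended this call, with adjusted p from 0.058 to 0.1. The experiments differ in age, Cre driver, control genotype and normalization at once, and these cannot be told apart. Tle3 (-0.83 ± 0.27, adjusted p = 0.16), Nfia (-0.64 ± 0.21, adjusted p = 0.16), Ebf1 (-0.58 ± 0.17, adjusted p = 0.11) and Zic1 (0.45 ± 0.19, adjusted p = 0.27) had an unadjusted p under 0.05 in the same test, which 16.3% of all genes had. Without the first adult knockout array Ebf1 was called, at -0.79 (adjusted p = 0.025).

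TLE3 is a Groucho-type corepressor that works with PPARG and opposes PRDM16 in heat-producing cells. Tle3 lay between 7.76 and 8.34 in cells, with a knockout difference over the pairs of 0.13 ± 0.10 (adjusted p = 0.65). Among embryos the controls read 7.26, 7.56 and 7.33 and the knockouts 7.46, 7.62, 7.87 and 7.85. The groups overlapped at their edges, and the difference was 0.32 ± 0.12 (1.25-fold, adjusted p = 0.21). In the adult the controls read 6.19 and 6.83 and the knockouts 6.18 and 5.81, with a difference of -0.51 ± 0.26 (adjusted p = 0.5).

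ZIC1 is a zinc finger factor whose expression marks interscapular brown fat. In cells Zic1 lay between 3.31 and 3.76, with 2 of the 8 arrays under the lower quartile of all clusters (3.49 to 3.56 on these arrays), so its differences there are those of a dim signal. In E17.5 brown fat the controls read 5.76, 5.62 and 5.61 and the knockouts 5.93, 5.93, 6.04 and 6.42. In adult brown fat the controls read 4.2 and 4.2 and the knockouts 5.1 and 5.03. At both ages every knockout array lay above every control array, beside 15.4% of all genes without overlap in the embryo and 41.9% in the adult. The difference was 0.42 ± 0.13 in the embryo (1.33-fold, adjusted p = 0.14) and 0.87 ± 0.13 in the adult (1.82-fold, interval 1.45 to 2.29, unadjusted p = 0.00096, adjusted p = 0.092). The adult value was the largest knockout difference of the 10 regulators in the 2 brown fat comparisons and was not called. In the fit of all 11 brown fat arrays, which shares the spread between ages, Zic1 (adjusted p = 0.0073), Ebf1 (0.036) and Nfia (0.046) were called in the adult, beside 7.56% of all genes called in that fit against 0.0271% in the fit of adult arrays alone. The outcome for these 3 genes turned on how the spread was estimated.

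**Figure D3:**
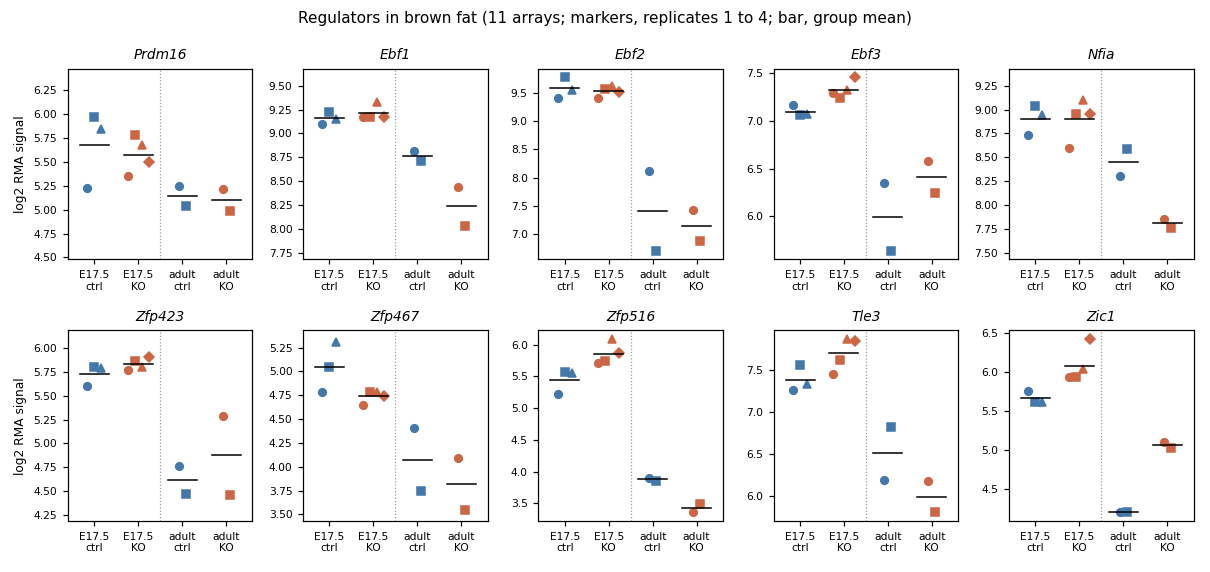
Log2 RMA signal of each regulator on the 11 brown fat arrays (blue, control; orange, knockout; marker shape, replicate number; bar, group mean; dotted line between E17.5 and adult, whose levels are not comparable). Zic1 knockout arrays lay above the controls at both ages, and Zfp516 knockout arrays above the controls at E17.5 (5.72 to 6.09 against 5.23 to 5.57) and below them in the adult. Groups did not overlap for 15.4% of all genes at E17.5 and 41.9% in the adult.

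**Figure D4:**
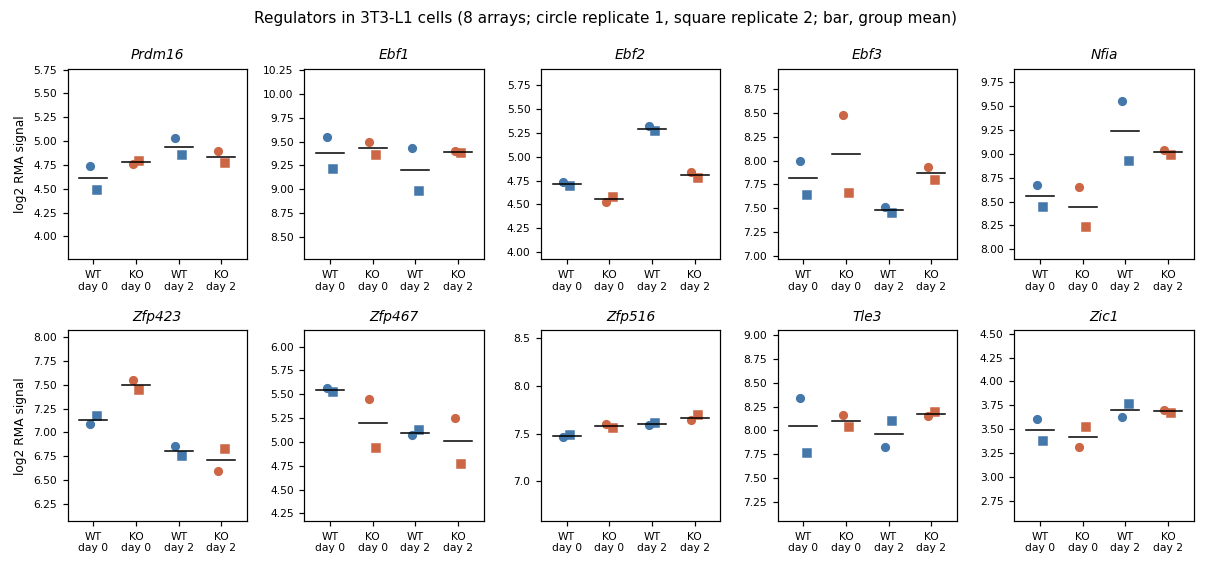
Log2 RMA signal of each regulator on the 8 3T3-L1 arrays by genotype and titled day (blue, wild type; orange, knockout; circle, replicate 1; square, replicate 2; bar, group mean). Each panel spans 2 log2 units. Ebf2 was highest in wild-type cells on day 2 (5.32 and 5.27) and Zfp423 highest in knockout cells on day 0 (7.55 and 7.44). Genotypes did not overlap for 34% of all genes on day 0 and 36.4% on day 2.

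The proteins that work with these regulators formed a list of 44 genes, such as PPARG, C/EBP factors, PRDM16's histone methyltransferase partner EHMT1 and further NFI, TLE and BMP pathway genes, of which 43 were measured. In cells 1 of 43 was called on day 0 (0.185% of all genes), Plac8, lower by -1.3 ± 0.15 (adjusted p = 0.016, and up to 0.15 without an array of day 0), and 2 of 43, Pparg and Cebpa, were called on day 2 (0.266% of all genes). Over the pairs 0 of 43 were called and 10 had an unadjusted p under 0.05 (12.3% of all genes). In wild-type cells from day 0 to day 2, 7 of 43 rose and 4 fell, beside 9.07% of all genes called in either direction. The largest rises were of Pparg (2.02 ± 0.13), Cebpb (1.84 ± 0.15), Cebpa (1.68 ± 0.13) and the corepressor Nrip1 (1.31 ± 0.15), and the coactivator Ppargc1a fell by 1.22 on the log2 scale. In knockout cells 7 rose and 1 fell, beside 5.7% of all genes. From the largest change down they were Cebpb (1.68 ± 0.15), Tle4, Foxc2, Nrip1, Ppargc1a (-0.99), Pparg (0.80 ± 0.13), Cebpa (0.76 ± 0.13) and Tbx15. The calls of Tle4, Foxc2, Nrip1, Ppargc1a and Tbx15 in knockout cells were not refitted without an array. Without 1 array the calls of Ppargc1a in wild-type cells and of Pparg and Cebpa in knockout cells could be lost, with adjusted p up to 0.092, 0.063 and 0.084. In brown fat 0 of 43 were called at either age, with 18 at an unadjusted p under 0.05 in the embryo (20% of all genes) and 9 in the adult (13.6%).

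Genes selective for brown fat, several of them known targets of these regulators, included some that fell in the embryo. Of 21 measured, 3 were called, all lower in E17.5 knockouts, beside 1.16% of all genes called. Whether this share differs from that of the regulators was not tested. Ucp1 was 10.64, 10.07 and 11.59 in controls and 7.37, 8.34, 7.57 and 7.23 in knockouts, a difference of -3.14 ± 0.40 (8.79-fold, adjusted p = 0.044). Dio2, the enzyme that activates thyroid hormone inside brown fat, was 6.59, 6.72 and 7.07 against 4.93, 5.52, 5.06 and 5.02, a difference of -1.66 ± 0.17 (adjusted p = 0.036). Gpd2, the mitochondrial glycerol phosphate dehydrogenase, differed by -1.89 ± 0.28 (adjusted p = 0.046). For all 3 every knockout array lay below every control array, beside 15.4% of all genes without overlap. Of the 21 genes 20 had a negative sign, with a list median of -0.94. The median of the 10 regulators was 0.08, that of their partners 0.11 and that of all genes -0.01. Leaving out any 1 of the 7 embryonic arrays left 0 genes called, these 3 included, with 2991 to 4548 genes at an unadjusted p under 0.05. Without an array the Ucp1 difference was -3.48 to -2.72 (adjusted p 0.052 to 0.12).

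Markers of other cell types also differed in value between the embryonic groups. Of 16 mature fat cell genes 0 were called in the embryo, although all 16 had a negative sign and an unadjusted p under 0.05 (median -0.73). Such a p was found for 20% of all genes. Of 11 precursor and connective tissue genes 2 were called higher, Col1a1 (0.60 ± 0.09) and Col3a1 (0.63 ± 0.10), beside 1.16% of all genes called. The list median was 0.58, and both calls were lost without any 1 array. The summed signal of that list was 4184 to 5987 in controls and 7168 to 8010 in knockouts. Of 22 skeletal muscle genes 0 were called and 13 had an unadjusted p under 0.05, beside 20% of all genes. Of these 13, 12 were higher and 1 was lower. Over the list 17 signs were positive and 5 negative. The summed signal of the list, in which bright genes weigh most, was 1174 to 2877 in controls and 3865 to 4977 in knockouts. Muscle actin Acta1 was 8.09 to 9.73 against 10.04 to 10.7. Of the muscle factors, Myod1 was 3.93 to 4.63 against 4.43 to 4.66, with overlap, and Myog 4.9 to 5.64 against 5.67 to 6.13. Leukocyte genes summed to 524 to 616 in controls and 634 to 793 in knockouts. No gene of the white-selective (18 measured), endothelial (8), leukocyte (11), nerve sheath and neuron (5) or epidermis and cartilage (6) lists was called at either age. An unadjusted p under 0.05 was found for 20% of all genes in the embryo and 13.6% in the adult. It was found for 4 white-selective genes in the embryo and 6 in the adult. In the embryo 4 leukocyte genes and 1 epidermis and cartilage gene had it, and at either age 0 endothelial or nerve genes. The part of these cells in the values of the regulators was not tested, and in whole tissue fewer cells of a type and less RNA per cell cannot be told apart.

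In the adult 0 of 21 brown-selective genes were called, and 11 had an unadjusted p under 0.05, 10 of them lower and 1 higher. Over that list 18 signs were negative and 3 positive, from -4.07 to 1.82, with a median of -0.80. Of 16 mature fat cell genes 0 were called and 9 had an unadjusted p under 0.05, all 9 lower. Their signs were negative for 14 and positive for 2, with a median of -0.64. Such a p was found for 13.6% of all genes. Adipoq, of positive sign, was 9.3 and 9.25 in controls and 9.52 and 9.59 in knockouts. Ucp1 was 12.09 and 12.5 in controls and 10.9 and 11.75 in knockouts (difference -0.97 ± 0.32, adjusted p = 0.29). The median of the 10 regulators was -0.26, beside 0 over all genes. Leukocyte genes read higher in knockouts for 11 of 11 genes, 0 of them called and 10 with an unadjusted p under 0.05. Their summed signal was 520 to 608 in controls and 1405 to 1445 in knockouts, without overlap, and that of the precursor list was 1976 to 2429 against 3461 to 3635. The part of these cells in the adult values of Zic1, Nfia, Ebf1 and Zfp516 was not tested.

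**Figure D5:**
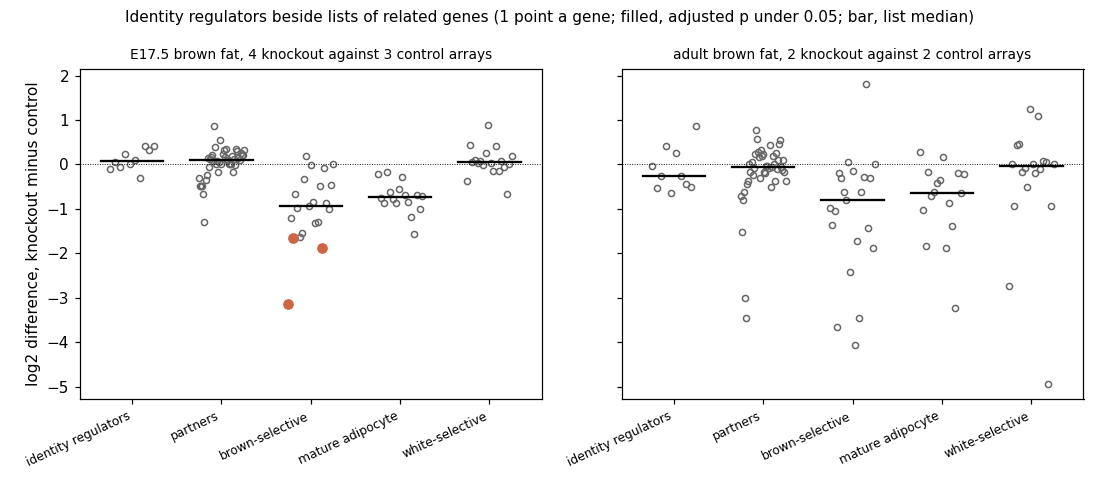
Log2 difference, knockout minus control, for each gene of 5 lists in E17.5 and adult brown fat (1 point a gene; filled points, adjusted p under 0.05; bar, list median). In the embryo the regulators lay between -0.31 and 0.42 while brown-selective genes reached -3.14 for Ucp1; in the adult none was called in any of these lists.

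The other lists had calls in cells too, where 0.185% of all genes were called on day 0 and 0.266% on day 2. On day 2, 3 of 16 mature fat cell genes were called, all lower, the lipid carrier Fabp4 (-2.03 ± 0.24), the lipid droplet protein Cidec (-1.46 ± 0.18) and the triglyceride enzyme Dgat2 (-1.05 ± 0.13). Of 21 brown-selective genes 1 was called on each day, the pyruvate dehydrogenase kinase Pdk4 (-1.36 ± 0.17 on day 0 and -1.3 ± 0.17 on day 2). Of 18 white-selective genes 2 were called on day 0, Mest lower (-3.54 ± 0.21) and Igfbp3 higher (1.25 ± 0.17), and 2 on day 2, Mest (-4.24 ± 0.21) and Retn (-1.07 ± 0.16), both lower. Of the 11 precursor and connective tissue genes 1 was called on day 0, the surface protein Cd34 (-1.43 ± 0.14), and 3 on day 2, all lower, Cd34 (-1.36 ± 0.14) and the matrix proteins Dcn (-1.96 ± 0.16) and Lum (at least 2.21-fold, adjusted p = 0.02, with the knockout arrays under the lower quartile). The summed signal of that list was 8343 to 8702 in wild-type and 7626 to 7763 in knockout cells on day 2, and 13968 to 16723 against 12690 to 15638 on day 0. The keratin Krt15 was called lower on day 2 (-1.35 ± 0.17). With 1 cell array left out at a time, Dcn passed each time (adjusted p 0.0038 to 0.026). The call of Cd34 was lost on day 0 without knockout replicate 1, knockout replicate 2 or wild-type replicate 2 (largest adjusted p = 0.1), and on day 2 without either day 2 knockout array (0.091). The calls of Lum and Krt15 were lost without either day 2 knockout array or day 2 wild-type replicate 2 (up to 0.16 and 0.15). The part of these differences in the values of the regulators was not tested. Ucp1 itself lay at 3.83 to 4.31 in cells, below the array medians. The Mest calls held without any 1 of the 8 arrays (adjusted p up to 0.0092 on day 0 and 0.0035 on day 2). The others were lost without at least 1 array, with adjusted p reaching 0.13 for Fabp4, 0.18 for Cidec, 0.16 for Dgat2, 0.19 and 0.21 for Pdk4, 0.24 for Igfbp3 and 0.33 for Retn.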

How the data were processed

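RNA of 8 3T3-L1 and 11 brown fat samples was measured on Affymetrix mouse arrays. The authors deposited 1 table of log2 values. RMA and the Transcriptome Analysis Console are the tools listed in the submitters' processing notes, without versions, and the genome build is not given in the sources used here. Of 41345 transcript clusters the platform annotation gave 23521 1 symbol, 1814 several and 16010 none. For the 1082 genes with several clusters the one with the highest mean over 19 arrays was used. RMA values carry no test against background, and the number of arrays limits the precision.

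Groups came from the sample titles. For 4 cell arrays, those titled day 2 replicate 1 and day 0 replicate 2, the source label gives the other day, and no array was moved because of its values. Arrays of wild-type and knockout cells were paired by the day and number they share under both labels, and their deviations from the group means correlated at 0.35 (day 0) and 0.3 (day 2).

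Two-sided tests used lmFit and eBayes of limma 3.58.1 (R 4.3.3), with Benjamini-Hochberg over 22180 genes and a threshold of 0.05. The cells shared a fit of 4 groups, and the genotype comparison over pairs had the pair as a block. Each brown fat experiment was fitted alone, leaving 5 residual degrees of freedom at E17.5 and 2 in the adult. The fits were tested on simulated data. Alternatives were a filter on dim genes, trend and robust fitting, centred arrays, every cluster in the fit, the replicate block, the source label, a fit of all 11 brown fat arrays and leaving out each array.

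The regulators, the gene lists and the rule for named genes were chosen with earlier results of these data known. The rule took the 10 regulators, Med1, up to 5 called genes with the largest fold change from each list of partners, brown-selective, white-selective and mature fat cell genes, 7 defining cell type markers (Ucp1, Cidea, Adipoq, Myod1, Myog, Acta1 and Pdgfra), and the 3 genes most like a called regulator. Genes named from the lists beyond this were picked after their values were seen. Pearson correlations of pattern left out predicted, microRNA and olfactory receptor genes. Promoter windows are RefSeq's, from GRCm38.p6.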

Additional observations from a re-analysis of the deposited data

Results flagged for a closer look

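In E17.5 brown fat of knockouts the third Ebf1 array read 9.33, apart from the other 3 at 9.17, on the log2 scale. Of 10 groups, 1 for each regulator over the 4 arrays, it was the single one with such a distant array, and chance gives about 1 in 20 groups.

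The Zfp516 knockout effect differed between adult and E17.5 brown fat by -0.86 ± 0.19 (limma, Benjamini-Hochberg adjusted p = 0.047). The adult knockout arrays read 3.36 and 3.49 against controls of 3.9 and 3.86, and the embryonic knockouts 5.72, 5.75, 6.09 and 5.87 against 5.23, 5.57 and 5.55. The call was lost without any 1 of the 11 arrays (adjusted p 0.058 to 0.1).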

How the results depend on the processing

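Over 90 results of the 10 regulators, 1174 values were computed under alternatives. Of these, 1145 stayed on their side of the threshold, 72 of them with another sign while uncalled, 21 lost a call, 6 gained one and 2 reversed. Nearly all of the 90 results were uncalled in the main fit, so the 1145 say little about how firm a call was. The called ones were Ebf2 in wild-type and Zfp423 in knockout cells over the days, and Zfp516 for the adult minus E17.5 effect. Settings other than leaving out an array ended or reversed these calls in 2 of 6, 2 of 6 and 3 of 5. The reversed ones were Ebf2 in wild-type cells over the days (-0.05) and Zfp423 in knockout cells over the days (0.07), both with days from the source label. The cause was not tested. The source label gives day 0 to every replicate 1 array and day 2 to every replicate 2 array. That setting therefore puts 1 array of each titled day into each group, and its days cannot be told apart from replicate number. With it the genes called numbered 1 on day 0, 0 on day 2 (490 at an unadjusted p under 0.05), 0 in wild-type (650) and 0 in knockout cells over the days (559), with 0 regulators called in each. Counts of all genes called also moved between settings. Over the pairs 121 genes were called with dim genes left out, 245 with trend and robust fitting, 97 with centred arrays, 21 with every cluster in the fit and 20 to 32 without a pair. With every cluster in the fit the counts were 4 on day 0, 12 on day 2, 1125 in wild-type and 544 in knockout cells over the days (0 regulators each), 0 in E17.5 (4135 at an unadjusted p under 0.05) and 1 in adult brown fat. Leaving out 1 array gave 3 to 40 genes on day 0, 12 to 47 on day 2, 1143 to 1714 in wild-type cells (0 to 2 regulators), 496 to 1282 in knockout cells (0 to 1 regulators), 0 to 2 for the genotype by day difference, 0 in E17.5 (2991 to 4548), 0 in adult brown fat (1984 to 2333) and 206 to 524 for the adult minus E17.5 effect (0 to 1 regulators). E17.5 brown fat had 601 genes called with dim genes left out, 530 with centred arrays and 814 in the fit of all 11 arrays. Adult brown fat had 63, 78 (trend and robust fitting), 56 and 1676, with 3 regulators in the last, beside 7.56% of all genes. For the adult minus E17.5 effect 0 regulators were called with trend and robust fitting, with every cluster or with the replicate block (Zfp516 adjusted p = 0.064, 0.089 and 0.058).

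Beyond the cell pairs the labels do not say what arrays of the same replicate number share. Same-numbered arrays correlated at 0.03 and 0.17 across days. In E17.5 brown fat they correlated at 0.31, -0.02 and 0.11, and not every array correlated best with its own number. In adult brown fat the value was 0.33, near the 0.35 and 0.3 of the cell pairs. With 2 arrays a group both pairs must give the same value. With the replicate block 2 regulators were called in wild-type cells over the days, Ebf2 and Nfia (adjusted p = 0.023), beside 11.5% of all genes, 1 gene for the genotype by day difference, 0 genes in E17.5 (3844 at an unadjusted p under 0.05) and 139 in adult brown fat. With no replicate block the comparison over pairs called 79 genes. Dim signal limits Zic1 in cells, which the filter on dim genes left out.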
